A study of Homo sapiens with 6 samples.

Results

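The genes that make, modify, store and burn fatty acids were examined in AsPC-1 cells, a human pancreatic adenocarcinoma line, after knockdown of HMOX1, which encodes the heme-degrading enzyme heme oxygenase-1. The members are 37 genes listed by name, from citrate cleavage to beta-oxidation, among the 20263 genes of the table. All 37 were found, and all 37 passed the filter on low counts together with 13769 genes in all. Cells grown in RPMI1640 with fetal bovine serum were transfected by jetPRIME with a negative control siRNA (siControl, genotype labelled Control) or with 1 of 2 siRNAs against HMOX1 (HMOX1si1 and HMOX1si2, genotype labelled HMOX1 knockdown). Each of the 3 groups had 2 libraries, both HMOX1 siRNAs were set against the same siControl libraries, and no source used here gives the time after transfection. The question posed by the submitters is how HMOX1 acts on proliferation in pancreatic cancer. One cell line cultured in serum is the only model, and serum itself brings lipids and fatty acids.

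Fatty acid synthesis starts in the cytosol, where ATP citrate lyase (ACLY) or acetyl-CoA synthetase (ACSS2) supplies acetyl-CoA, acetyl-CoA carboxylases (ACACA, ACACB) make malonyl-CoA and fatty acid synthase (FASN) builds palmitate. Elongases of the ELOVL family and desaturases (SCD and the FADS enzymes) then lengthen the chain and add double bonds, and acyl-CoA synthetases (ACSL) activate free fatty acids. Acyltransferases, lipins and DGAT enzymes assemble triglyceride, perilipins coat the lipid droplet, lipases release fatty acids again, and carnitine palmitoyltransferases and the mitochondrial beta-oxidation enzymes burn them. Many of the synthesis genes are known targets of the sterol regulatory element-binding proteins, and SCD in particular is widely studied in cancer cells because unsaturated fatty acids limit the damage done by saturated ones.

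Total counts per library ran from 36.1 to 45.1 M. HMOX1 itself had 328 and 378 counts in the siControl libraries, 102 and 112 with HMOX1si1, and 55 and 53 with HMOX1si2, which left 29.8% and 13.9% of the control level in CPM, the counts scaled to a common library size by TMM (adjusted p of the average 0.00562, edgeR). Of the carcinoma line's own markers, KRT8, KRT18, KRT19 and EPCAM were high. In siControl MUC1 had 400 and 457 CPM, CDH1 91 and 74.9, and KRT7 27.1 and 31.3. The summed ductal and carcinoma marker level was 13000 to 14700 CPM in siControl, 9120 to 9370 with HMOX1si1 and 12900 to 13400 with HMOX1si2. With HMOX1si1, CDH1 was higher (111 and 98.5 CPM), MUC1 overlapped the control (301 and 405), and the rest of the list was lower. Of the markers of other lipid-handling cells, the adipocyte hormone gene ADIPOQ had no count in any library. The 5 hepatocyte and 5 acinar markers were each under 1 CPM. Adipocyte markers summed to 28.2 to 31.3 CPM in siControl, 24.2 to 30.3 with HMOX1si1 and 16.4 to 19.6 with HMOX1si2. Most of each sum was the droplet gene CIDEC. It had 26.7 and 29 CPM in siControl, 26.3 and 21.6 with HMOX1si1, and 11.8 and 14.2 with HMOX1si2. The fatty acid carrier gene FABP4 had 3.43 and 4.27 CPM with HMOX1si2. Fibroblast markers summed to 119 to 125, 91.2 to 95.4 and 78.8 to 86.9 CPM, nearly all from LUM, and leukocyte and endothelial markers to 88.8 to 93.3, 132 to 164 and 95.4 to 129 CPM, nearly all from CD68. The part of these marker shifts in the results was not tested. Nothing in the labels says that the libraries of a group came from separate cultures, so p-values measure the spread between these libraries, which may be technical.

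The members together took 0.473% and 0.470% of counts in siControl, 0.430% and 0.439% with HMOX1si1, and 0.435% and 0.464% with HMOX1si2. Levels of different genes are compared here only as CPM per kilobase of exon. On that scale the highest member in siControl was AGPAT2, an acyltransferase that makes phosphatidic acid, at 117, followed by HADHA, a subunit of the mitochondrial trifunctional protein, at 93.3, the droplet coat gene PLIN3 at 76.9, ACSL5 at 66.0 and SCD at 63.5. FASN stood at 25.0, near DGAT1 at 26.9 and ACSS2 at 26.8. The lowest were FADS1 at 0.818, the glycerol-phosphate acyltransferase GPAM at 0.749 and ELOVL7 at 0.426. AsPC-1 cells thus carried RNA of every step listed, at levels spread over more than 2 orders of magnitude.

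**Figure D1:**
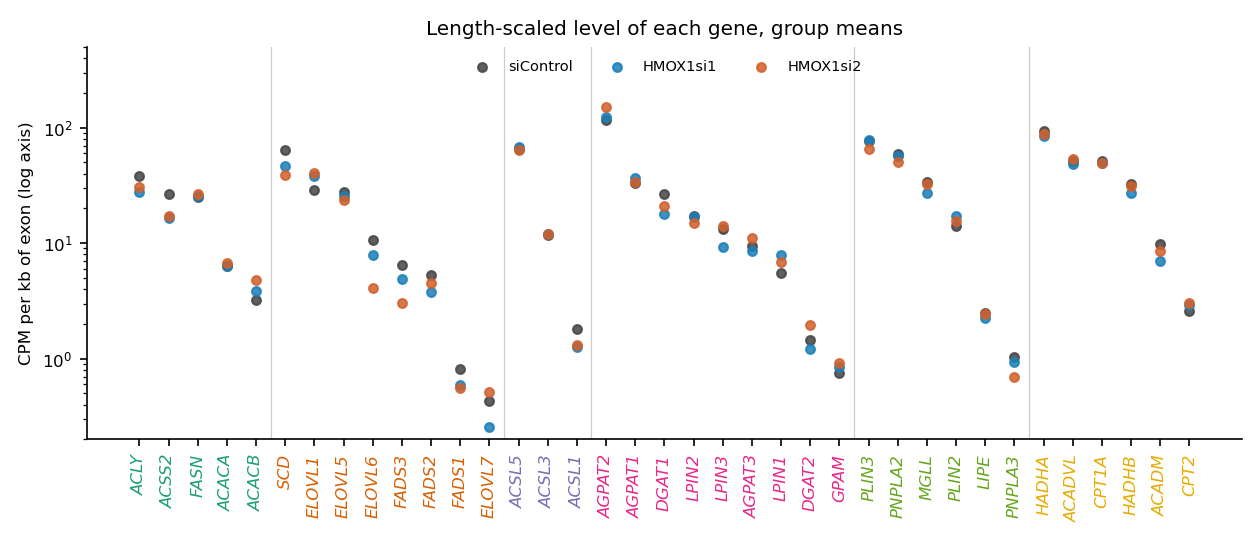
Level of each of the 37 members in siControl, HMOX1si1 and HMOX1si2, as CPM per kilobase of exon on a log axis. Genes are grouped by role and ordered by the siControl level within each role. AGPAT2 (117) and HADHA (93.3) are highest in siControl, and ELOVL7 (0.426) is lowest.

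Averaged over both siRNAs, 5 members fell (ACSS2, SCD, FADS1, FADS3 and DGAT1) and 1 rose (LPIN1) at a Benjamini-Hochberg adjusted p under 0.05 over all genes in edgeR's quasi-likelihood test. That is 16.2% of the members in either direction, 13.5% lower and 2.7% higher, beside 10.1% of all genes tested in either direction, 4.93% lower and 5.16% higher. With HMOX1si1 alone 5 fell (ACSS2, SCD, LPIN3, DGAT1 and ACADM) and LPIN1 rose, beside 10.0% of all genes in either direction, 5.01% lower and 5.02% higher. With HMOX1si2 alone 3 fell (ACSS2, SCD and FADS3) and 0 rose, or 8.11% of the members beside 5.73% of all genes, 2.67% of them lower and 3.06% higher. Between the siRNAs 1 member differed (LPIN3), or 2.7%, beside 3.62% of all genes. In all, 8 members passed in at least 1 of these comparisons and 29 in none. The median log2 fold change of the members was -0.10 on average, -0.14 with HMOX1si1 and -0.05 with HMOX1si2, where the median of all genes was 0.00 each time. All 4 knockdown libraries lay below both siControl libraries in 13 members, or 35.1%, and above both in 3 members (ACACB, LPIN1 and PLIN2), or 8.11%, beside 18.2% and 18.7% of all genes. In bulk RNA, fewer cells of a kind and less RNA per cell cannot be told apart.

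These calls rest on 2 libraries a group. Here and below, counts of members with an unadjusted p under 0.05 stand without the share of all genes, which was not counted. They therefore cannot show an excess among the members. On average, 0 members passed without siControl replicate 1, 0 without siControl replicate 2 and 0 without HMOX1si1 replicate 2 in edgeR, where 9, 10 and 11 members had an unadjusted p under 0.05, and without either siControl library no gene of the whole table passed. Without HMOX1si1 replicate 1, 1 member (ACSS2) passed on average. With HMOX1si1 alone, 0 passed in edgeR without siControl replicate 1, siControl replicate 2, HMOX1si1 replicate 1 or HMOX1si1 replicate 2, where 11, 10, 7 and 11 had an unadjusted p under 0.05. With HMOX1si2 alone, 0 passed in edgeR without siControl replicate 1, siControl replicate 2 or HMOX1si2 replicate 1, where 7, 12 and 9 had an unadjusted p under 0.05, and 1 (FADS3) passed without either HMOX1si1 library. DESeq2 called more members and more genes of the whole table. On average it called 9 members, beside 20.3% of all genes, with HMOX1si1 8 beside 19.7%, with HMOX1si2 6 beside 14.3%, and for the difference 3 beside 9.89%. With limma-voom the counts were 6 beside 9.91%, 6 beside 9.84%, 3 beside 5.68% and 2 beside 3.67%.

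**Figure D2:**
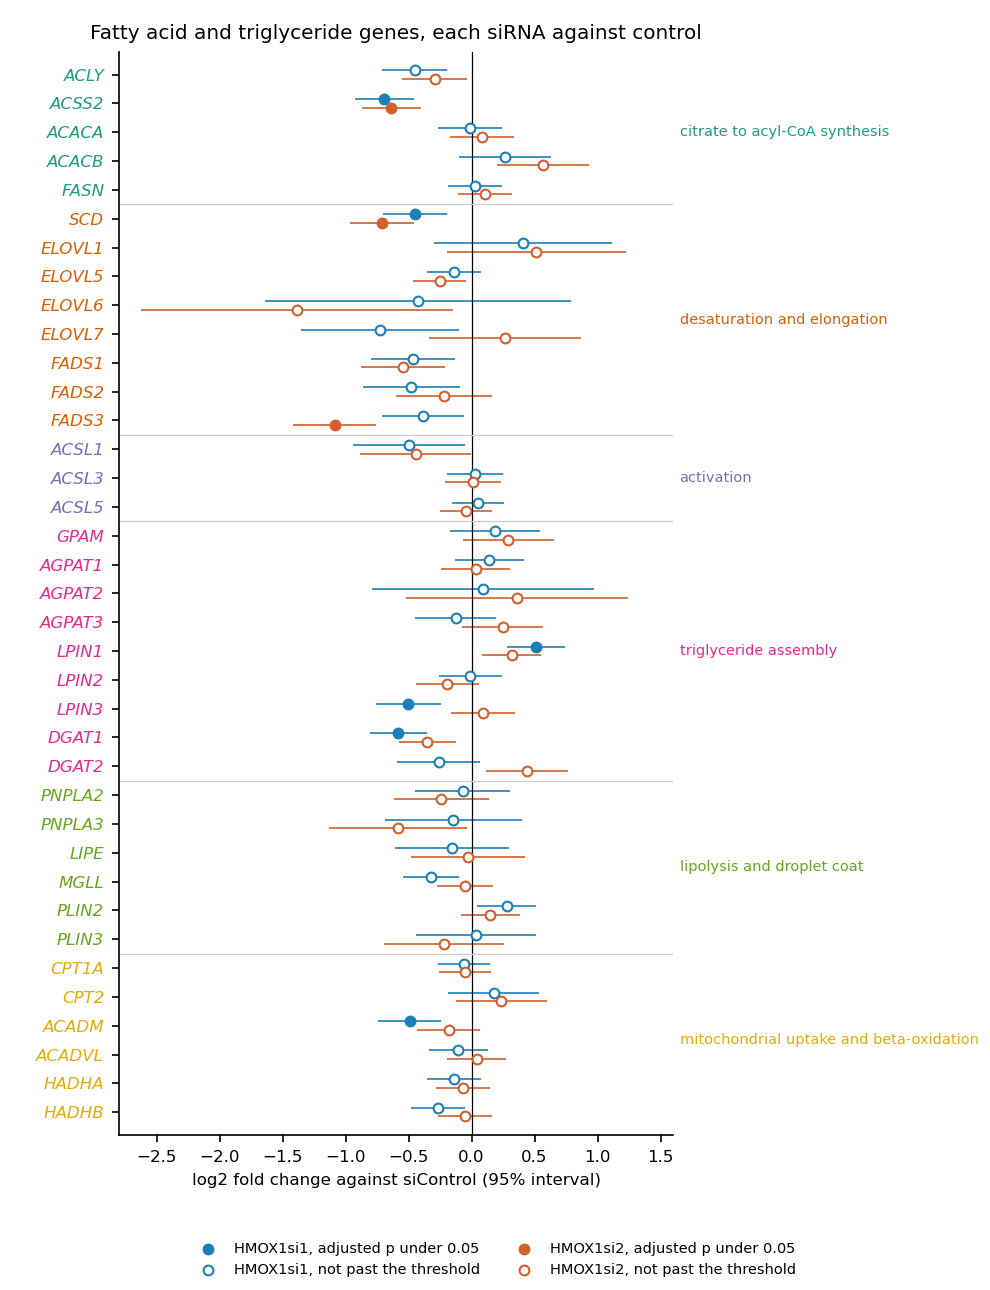
Log2 fold change against siControl of each member with HMOX1si1 and with HMOX1si2, grouped by role, with 95% intervals from edgeR's fit (filled points passed an adjusted p of 0.05, open points did not). In the desaturation and elongation group SCD and FADS3 lie to the left of 0 with both siRNAs, whereas FASN and ACACA lie near 0.

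ACSS2, which makes acetyl-CoA from acetate and lies at 20:34872146-34927962 on the plus strand (GRCh38, as all gene positions here), was the member of the first steps that fell. Its levels were 141 and 147 CPM in siControl, 92.2 and 86.2 with HMOX1si1, and 88.3 and 97.0 with HMOX1si2. All 4 knockdown libraries lay below both controls, and the siRNA groups overlapped each other. ACSS2 fell by 0.66 (SE 0.08, adjusted p = 0.0135, edgeR's quasi-likelihood test) on the log2 scale on average, to 63.1% of the control, and by 0.69 with HMOX1si1 (adjusted p = 0.0149) and 0.64 with HMOX1si2 (adjusted p = 0.0267). The adjusted p of the average in edgeR was 0.0719 without siControl replicate 1, 0.114 without siControl replicate 2 and 0.0568 without HMOX1si1 replicate 2. For HMOX1si1 it was 0.0598 and 0.0905 without siControl replicates 1 and 2, and 0.0734 and 0.113 without HMOX1si1 replicates 1 and 2. For HMOX1si2 every library left out ended the call, with adjusted p in edgeR from 0.0522 without HMOX1si2 replicate 2 to 0.140 without siControl replicate 2. The remaining values were 0.0584 and 0.0607 for HMOX1si1 replicates 1 and 2, 0.112 for HMOX1si2 replicate 1 and 0.0986 for siControl replicate 1.

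ACLY, the other source of cytosolic acetyl-CoA, had 211 and 184 CPM in siControl, 145 and 144 with HMOX1si1, and 153 and 169 with HMOX1si2. The control libraries were the 2 highest here too, but the mean log2 fold change of -0.37 (SE 0.09) had an adjusted p of 0.0545 in edgeR and did not pass. DESeq2 called ACLY on average (adjusted p = 0.00725) and with HMOX1si1 (adjusted p = 0.00466), and limma-voom did not (0.0556 and 0.0510). FASN, the multi-domain enzyme that makes palmitate, stood at 234 and 233 CPM in siControl, 247 and 230 with HMOX1si1, and 255 and 249 with HMOX1si2. HMOX1si1 overlapped the control, and both HMOX1si2 libraries lay above those of the other groups. The 95% interval of its mean log2 fold change ran from -0.12 to 0.25. The carboxylase of the cytosol, ACACA, had an interval from -0.18 to 0.25. ACACB, the carboxylase at the mitochondrial surface whose malonyl-CoA restrains fatty acid import, had 50.2 and 43.4 CPM in siControl, 56.0 and 56.5 with HMOX1si1, and 78.4 and 60.2 with HMOX1si2. All 4 knockdown libraries were higher than both controls, with a log2 fold change of 0.41 (SE 0.13) and an adjusted p of 0.0970 in edgeR. DESeq2 called ACACB on average (adjusted p = 0.0410) and with HMOX1si2 (adjusted p = 0.0167), and limma-voom did not (0.0977 and 0.0892).

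Desaturation and elongation held 3 of the 5 members that fell, out of its 8 genes, and its median log2 fold change was -0.43 on average. In 6 of the 8 genes (75.0%) all knockdown libraries lay below both controls, beside 18.2% of all genes. The summed level of the 8 genes was 696 and 716 CPM in siControl, 562 and 596 with HMOX1si1, and 512 and 502 with HMOX1si2. The groups did not overlap, but a large part of each sum was SCD. That gene alone had 354 and 328 CPM in siControl, 240 and 259 with HMOX1si1, and 220 and 196 with HMOX1si2.

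SCD (10:100347124-100364834, plus strand), the delta-9 desaturase that turns stearate into oleate, had 354 and 328 CPM in siControl, 240 and 259 with HMOX1si1, and 220 and 196 with HMOX1si2. The groups did not overlap, and HMOX1si2 had the lowest SCD. SCD fell by 0.58 (SE 0.09, adjusted p = 0.0212, edgeR's quasi-likelihood test) on average, to 66.9% of the control, by 0.45 with HMOX1si1 (adjusted p = 0.0490) and by 0.71 with HMOX1si2 (adjusted p = 0.0257). The difference between the siRNAs, -0.26, had an adjusted p of 0.233 in edgeR. On average the adjusted p in edgeR was 0.0941 without siControl replicate 1, 0.116 without siControl replicate 2, and 0.0621 and 0.0647 without HMOX1si1 replicates 1 and 2. Removing siControl replicates 1 and 2 ended the HMOX1si1 call (0.138 and 0.143 in edgeR), as did removing those of HMOX1si1 (0.190 and 0.178) or scaling by RLE size factors (0.0506), and the HMOX1si2 call without any 1 library (0.104 and 0.125 without siControl replicates 1 and 2, 0.0555 and 0.0554 without those of HMOX1si1, 0.0879 and 0.0641 without those of HMOX1si2).

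FADS3 (11:61873519-61892051, minus strand), a desaturase of the FADS cluster that acts on sphingoid bases, had 37.7 and 42.8 CPM in siControl, 29.8 and 31.8 with HMOX1si1, and 20.8 and 17.1 with HMOX1si2. The 3 groups stood apart, with HMOX1si2 lowest. FADS3 fell by 0.74 (SE 0.11, adjusted p = 0.0217, edgeR's quasi-likelihood test) on average, to 60.0% of the control, and with HMOX1si2 by 1.09 (SE 0.14, adjusted p = 0.0198), to 47.1%, the lowest share among the members called. With HMOX1si1 its log2 fold change was -0.39 (adjusted p = 0.115), and the difference between the siRNAs, -0.70, had an adjusted p of 0.0514 in edgeR, 0.0519 in limma-voom and 0.00105 in DESeq2. The average had an adjusted p in edgeR of 0.0787 and 0.147 without siControl replicates 1 and 2, and of 0.0590 and 0.0643 without HMOX1si1 replicates 1 and 2. The HMOX1si2 call was lost without siControl replicates 1 and 2 (0.0890 and 0.125 in edgeR) and without HMOX1si2 replicate 1 (0.0637).

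FADS1 (11:61799625-61829318, minus strand), the delta-5 desaturase of polyunsaturated fatty acids, had 8.15 and 8.58 CPM in siControl, 5.80 and 6.35 with HMOX1si1, and 5.46 and 6.01 with HMOX1si2. Both controls were above all 4 knockdown libraries. FADS1 fell by 0.50 (SE 0.12, adjusted p = 0.0489, edgeR's quasi-likelihood test) on average, to 70.5% of the control, and passed with neither siRNA alone in edgeR (DESeq2 called it with HMOX1si2, adjusted p = 0.0491). Any 1 library left out ended it, with adjusted p in edgeR of 0.131 and 0.230 without siControl replicates 1 and 2, 0.118 and 0.117 without those of HMOX1si1, and 0.103 and 0.0583 without those of HMOX1si2, as did scaling by library totals (0.0605) and no filter on low counts (0.0543). Its neighbour FADS2 (11:61792980-61867354, plus strand), the delta-6 desaturase of the same pathway, had 55.8 and 60.3 CPM in siControl, 37.3 and 46.1 with HMOX1si1, and 55.5 and 44.1 with HMOX1si2. The libraries of the 2 siRNAs overlapped, and the mean log2 fold change of -0.35 had an adjusted p of 0.140 in edgeR. FADS1 and FADS2 share 490 exonic bases on opposite strands, which is 4.79% of FADS1, and whether counting used strand is not stated.

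Among the elongases 0 of 4 passed in any comparison with edgeR, DESeq2 or limma-voom, and on average 1 (ELOVL5) had an unadjusted p under 0.05 in edgeR. ELOVL6 (4:110045846-110199199, minus strand), which extends palmitate to stearate, the substrate of SCD, had 81.0 and 74.6 CPM in siControl, 58.3 and 57.6 with HMOX1si1, and 13.4 and 46.2 with HMOX1si2. All 4 knockdown libraries were below both controls, but the 2 HMOX1si2 libraries were 3.46-fold apart. The mean log2 fold change was -0.91 (SE 0.42) with an adjusted p of 0.200 in edgeR. Without HMOX1si2 replicate 1, the lower library, it was -0.59 (adjusted p = 0.0393, edgeR), and without HMOX1si2 replicate 2 it was -1.48 (adjusted p = 0.0104, edgeR). The size of this change therefore depended on which HMOX1si2 library was kept. ELOVL5, an elongase of polyunsaturated chains, had 109 and 105 CPM in siControl and between 87.3 and 98.5 in the knockdown libraries (log2 fold change -0.20, adjusted p = 0.138, edgeR). ELOVL7 was low, at 2.10 and 1.80 CPM in siControl, 1.03 and 1.33 with HMOX1si1, and 2.03 and 2.65 with HMOX1si2, and its difference between the siRNAs, 0.99 (SE 0.25), had an adjusted p of 0.0947 in edgeR.

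**Figure D3:**
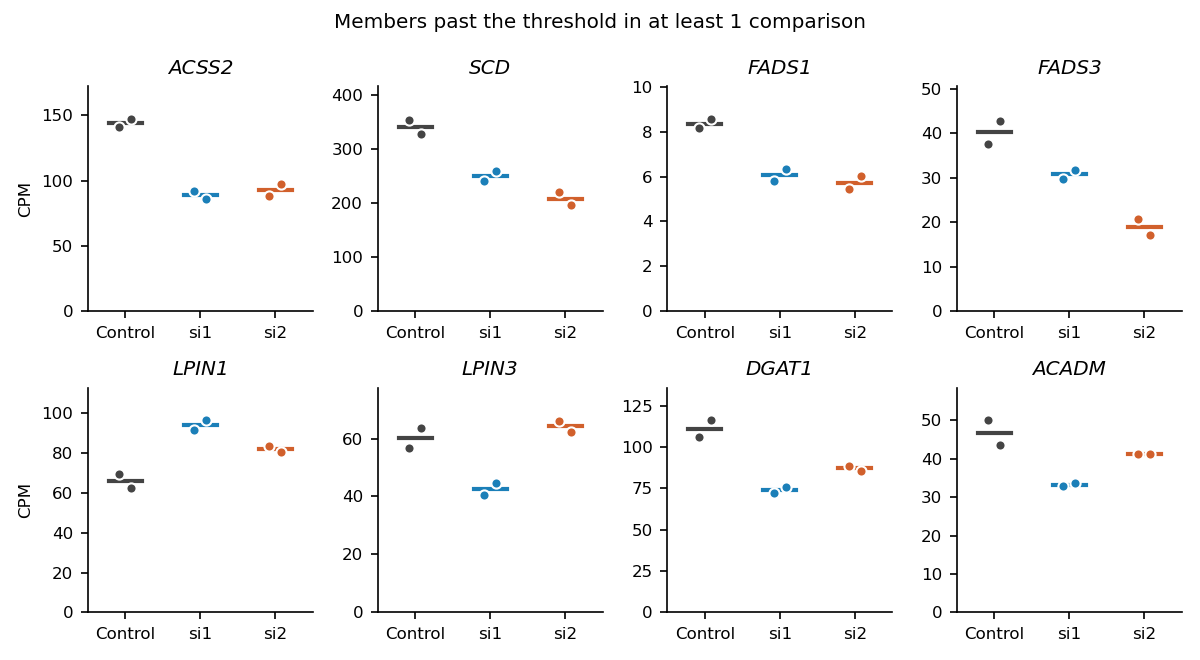
Level in CPM in each library (points) and group mean (lines) of the 8 members that passed in at least 1 comparison. The siControl points lie above all knockdown points for ACSS2, SCD, FADS1, FADS3, DGAT1 and ACADM and below them for LPIN1, and LPIN3 is low with HMOX1si1 only.

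The sequences before the transcription start of SCD, FADS3 and ACSS2 are shown because these members had the 3 largest falls among those called on average. They come from RefSeq (GRCh38.p14), are 250 bases long and run 5′ to 3′ toward the start on the gene's strand. Capitals mark CCAAT or its reverse complement ATTGG, the core of the box bound by the NF-Y factor, which is known to act beside sterol regulatory element-binding proteins at lipid gene promoters. For ACSS2, which has 2 starts in the table, the window of the other start holds no CCAAT.
SCD, chr10:100346983-100347232, plus strand: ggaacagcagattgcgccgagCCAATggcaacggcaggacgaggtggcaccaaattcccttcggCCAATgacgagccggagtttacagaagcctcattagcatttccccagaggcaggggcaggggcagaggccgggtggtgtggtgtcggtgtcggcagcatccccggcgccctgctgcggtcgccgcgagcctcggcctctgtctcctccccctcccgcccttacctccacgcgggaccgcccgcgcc
FADS3, chr11:61891546-61891795, minus strand: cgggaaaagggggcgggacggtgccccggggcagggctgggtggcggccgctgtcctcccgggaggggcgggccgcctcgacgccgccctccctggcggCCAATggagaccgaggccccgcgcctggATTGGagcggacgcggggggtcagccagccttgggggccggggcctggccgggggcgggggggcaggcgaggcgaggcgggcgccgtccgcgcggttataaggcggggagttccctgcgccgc
ACSS2, chr20:34874739-34874988, plus strand: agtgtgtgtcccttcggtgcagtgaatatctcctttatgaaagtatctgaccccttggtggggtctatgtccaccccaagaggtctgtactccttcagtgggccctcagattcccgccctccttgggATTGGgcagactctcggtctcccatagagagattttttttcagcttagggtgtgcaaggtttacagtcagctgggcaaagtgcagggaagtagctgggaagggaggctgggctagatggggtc

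In SCD the boxes begin 229 and 186 bases before the start, in FADS3 151 and 123 bases before it, and in ACSS2 123 bases before it. Windows reaching from 250 bases before to 50 after the start were found for 31 of the 37 members. FASN, LPIN3, DGAT1, DGAT2, PNPLA3 and MGLL had no window, so they were not searched for motifs. CCAAT on either strand occurred in 16 of these 31 (51.6%) and in 39.7% of 27305 genes. Members had more windows per gene (52 for 31) than all genes (35116 for 27305), and per window the shares were 40.4% and 34.6%. The sterol regulatory element TCACNCCAC on either strand occurred in 2 (ACSL1 and PNPLA2, 6.45%, beside 1.39% of all genes), and the E-box CACGTG in 3 (ELOVL5, LPIN2 and PLIN2, 9.68%, beside 8.77%). Per window the element was in 3.85% against 1.13%, and the E-box in 5.77% against 7.26%, so that the order of the E-box shares depended on the unit counted. FADS1, by contrast, had none of the 3 motifs in its window. No motif searched is contained in another. A match of letters is a description of the sequence and not a measured binding site.

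Among the acyl-CoA synthetases 0 of 3 passed with edgeR, DESeq2 or limma-voom, and 1 (ACSL1) had an unadjusted p under 0.05 in edgeR. ACSL1 had 11.5 and 11.0 CPM in siControl, 7.97 and 7.93 with HMOX1si1, and 6.89 and 9.59 with HMOX1si2, all 4 lower than the controls (log2 fold change -0.47, adjusted p = 0.103, edgeR). ACSL5, the most abundant of the 3 per kilobase, had 281 and 278 CPM in siControl, 285 and 294 with HMOX1si1, and 276 and 265 with HMOX1si2. Its levels stayed within 265 to 294 CPM, and the 95% interval of its mean log2 fold change was -0.18 to 0.18. That of ACSL3, which serves droplet growth, was -0.17 to 0.21.

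Triglyceride assembly held changes in both directions. Its 9 members had a median log2 fold change of 0.09 on average, with 1 higher and 1 lower call. The acyltransferases that add the first fatty acids, GPAM, AGPAT1, AGPAT2 and AGPAT3, had log2 fold changes from 0.06 to 0.24, and on average 0 of 4 passed with edgeR, DESeq2 or limma-voom or had an unadjusted p under 0.05 in edgeR.

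The lipins convert phosphatidic acid to diacylglycerol, and LPIN1 can also act as a transcriptional coactivator. LPIN1 (2:11677595-11827409, plus strand) had 69.2 and 62.6 CPM in siControl, 91.5 and 96.4 with HMOX1si1, and 83.7 and 80.6 with HMOX1si2. The 3 groups did not overlap, and HMOX1si1 was highest. LPIN1 rose by 0.41 (SE 0.08, adjusted p = 0.0375, edgeR's quasi-likelihood test) on average, to 133% of the control, and by 0.51 (SE 0.10, adjusted p = 0.0299) with HMOX1si1. With HMOX1si2 its log2 fold change was 0.32 (adjusted p = 0.110, edgeR). The average had an adjusted p in edgeR of 0.0925 and 0.197 without siControl replicates 1 and 2, 0.0873 and 0.122 without those of HMOX1si1, and 0.0758 without HMOX1si2 replicate 1. With HMOX1si1 alone, siControl replicates 1 and 2 (adjusted p 0.0684 and 0.141 without each, edgeR) and both HMOX1si1 libraries were each needed for the call (0.107 and 0.178).

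LPIN3 (20:41340920-41360582, plus strand) separated the 2 siRNAs, with 56.9 and 63.8 CPM in siControl, 40.6 and 44.5 with HMOX1si1, and 66.2 and 62.3 with HMOX1si2. The HMOX1si1 libraries lay below the other 4, and HMOX1si2 overlapped the control. LPIN3 fell by 0.50 (SE 0.11, adjusted p = 0.0388, edgeR's quasi-likelihood test) with HMOX1si1, whereas its log2 fold change with HMOX1si2 was 0.09 (adjusted p = 0.618). The difference, HMOX1si2 minus HMOX1si1, was 0.59 (SE 0.11, adjusted p = 0.0422, edgeR). The HMOX1si1 call was lost without siControl replicates 1 and 2 (0.0741 and 0.166 in edgeR) and HMOX1si1 replicates 1 and 2 (0.167 and 0.147), and the difference without any 1 library (0.0775 and 0.0776 without those of siControl, 0.218 and 0.166 without those of HMOX1si1, 0.129 and 0.0982 without those of HMOX1si2). EMILIN3 overlaps 617 of its exonic bases (13.5%) on the other strand and had at most 4 counts in a library. LPIN2 had a log2 fold change of -0.10 on average (adjusted p = 0.475, edgeR).

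The last step, diacylglycerol to triglyceride, is carried out by DGAT1 or the unrelated enzyme DGAT2. DGAT1 (8:144314584-144326910, minus strand) had 106 and 116 CPM in siControl, 72.3 and 76.0 with HMOX1si1, and 88.5 and 85.5 with HMOX1si2. The groups did not overlap, and HMOX1si1 was lowest. DGAT1 fell by 0.47 (SE 0.08, adjusted p = 0.0250, edgeR's quasi-likelihood test) on average, to 72.4% of the control, and by 0.58 (SE 0.09, adjusted p = 0.0213) with HMOX1si1. With HMOX1si2 its log2 fold change was -0.35 (adjusted p = 0.0856 in edgeR and 0.0253 in DESeq2). On average only the removal of HMOX1si2 replicate 2 kept the call (adjusted p = 0.0416, edgeR). The others gave 0.0782 and 0.154 without siControl replicates 1 and 2, 0.0788 and 0.0827 without those of HMOX1si1, and 0.0514 without HMOX1si2 replicate 1. With HMOX1si1 alone, siControl replicates 1 and 2 (adjusted p 0.0570 and 0.112 without each, edgeR) and both HMOX1si1 libraries were each needed for the call (0.111 and 0.119). HSF1 shares 139 exonic bases (3.36%) with DGAT1 on the other strand and had a log2 fold change of -0.09 (adjusted p = 0.708, edgeR). DGAT2 had 10.8 and 12.1 CPM in siControl, 9.18 and 9.88 with HMOX1si1, and 14.6 and 16.4 with HMOX1si2. Its 2 knockdown groups lay on opposite sides of the control, with a difference of 0.70 (SE 0.14) and an adjusted p of 0.0514 in edgeR, 0.00200 in DESeq2 and 0.0469 in limma-voom.

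Of the 6 genes of lipolysis and the droplet coat, 0 passed in any comparison with edgeR, where 1 (PLIN2) had an unadjusted p under 0.05 on average. DESeq2 called 1, MGLL with HMOX1si1, and limma-voom 0. MGLL, the monoacylglycerol lipase, had 392 and 412 CPM in siControl, 309 and 335 with HMOX1si1, and 394 and 383 with HMOX1si2. The HMOX1si1 libraries were the 2 lowest (log2 fold change -0.32, adjusted p = 0.0772, edgeR). PLIN2, the ubiquitous droplet coat protein, had 68.7 and 75.1 CPM in siControl, 89.7 and 84.7 with HMOX1si1, and 77.6 and 81.9 with HMOX1si2. All 4 knockdown libraries were above both controls (log2 fold change 0.21, adjusted p = 0.145, edgeR). PNPLA2, the main triglyceride lipase, had a log2 fold change of -0.16 (adjusted p = 0.464, edgeR), PNPLA3 one of -0.36 (0.247), the hormone-sensitive lipase LIPE one of -0.09 (0.725) and PLIN3 one of -0.09 (0.739).

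Mitochondrial uptake and beta-oxidation gave 0 of 6 calls on average and 1 (ACADM) with HMOX1si1 in edgeR. On average ACADM alone had an unadjusted p under 0.05 in edgeR, DESeq2 called it, and limma-voom called 0. ACADM (1:75724347-75787575, plus strand), the medium-chain acyl-CoA dehydrogenase, had 50 and 43.5 CPM in siControl, 32.9 and 33.6 with HMOX1si1, and 41.3 and 41.1 with HMOX1si2. The groups did not overlap, and HMOX1si1 was lowest. ACADM fell by 0.49 (SE 0.10, adjusted p = 0.0382, edgeR's quasi-likelihood test) with HMOX1si1, and its log2 fold changes were -0.18 (adjusted p = 0.308) with HMOX1si2 and -0.34 (adjusted p = 0.0643) on average. Any 1 library left out ended the HMOX1si1 call (0.113 and 0.0923 without siControl replicates 1 and 2, 0.155 and 0.183 without those of HMOX1si1, 0.0505 and 0.0506 without those of HMOX1si2 in edgeR). RABGGTB shares 157 exonic bases (3.28%) with ACADM on the same strand and had a log2 fold change of -0.29 with HMOX1si1 (adjusted p = 0.247, edgeR). CPT1A, the gate of mitochondrial fatty acid import, had 333 and 347 CPM in siControl, 329 and 324 with HMOX1si1, and 322 and 333 with HMOX1si2. All 4 knockdown libraries were below both controls, the closest by less than the rounding, and the 95% interval of its mean log2 fold change ran from -0.23 to 0.12. HADHA, a subunit of the trifunctional protein and the member of this role with the most counts, had 396 and 423 CPM in siControl, 374 and 369 with HMOX1si1, and 380 and 400 with HMOX1si2 (log2 fold change -0.11, adjusted p = 0.388, edgeR). The HMOX1si2 libraries reached into the range of the controls. The other subunit, HADHB, had a log2 fold change of -0.16, the very-long-chain dehydrogenase ACADVL one of -0.03, and CPT2, which works beside CPT1A, one of 0.21.

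Differences between the 2 libraries of a group above 1.5-fold occurred in 3 members, or 8.11%, beside 21.7% of all genes tested. Besides ELOVL6, these were ELOVL1, whose siControl libraries at 48.1 and 95.3 CPM were 1.98-fold apart while its knockdown libraries lay between 95.2 and 103, and AGPAT2. AGPAT2 had 198 and 223 CPM in siControl, 162 and 286 with HMOX1si1, and 188 and 354 with HMOX1si2. None of the 3 shares exonic bases with another gene of the table, and their mean fold changes carry the standard errors of 0.42 for ELOVL6, 0.26 for ELOVL1 and 0.32 for AGPAT2.

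**Figure D4:**
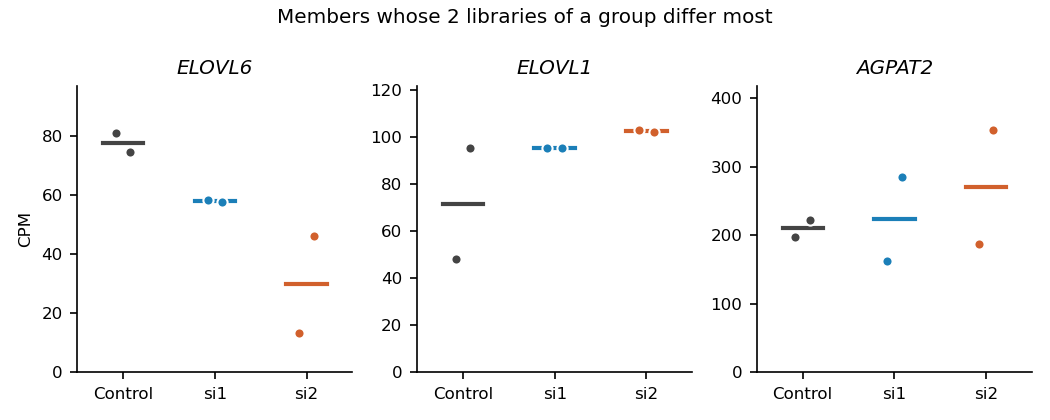
Level in CPM in each library (points) and group mean (lines) of the 3 members whose 2 libraries of a group differed by more than 1.5-fold. ELOVL6 differs with HMOX1si2, ELOVL1 in siControl, and AGPAT2 with both HMOX1 siRNAs.

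Ratios of 2 members' counts within 1 library do not depend on library scaling. The pairs were chosen after the values were seen and carry no test, and not every pair formed is plotted. The ratio of FADS1 to FADS2 was 0.146 and 0.142 in siControl, 0.155 and 0.138 with HMOX1si1, and 0.0984 and 0.136 with HMOX1si2. HMOX1si1 thus overlapped the control for this pair. The unplotted ratios of ACSS2 to ACLY and of ACLY to FASN were lower in all 4 knockdown libraries. The ratio of SCD to FASN was 1.51 and 1.40 in siControl, 0.971 and 1.13 with HMOX1si1, and 0.862 and 0.790 with HMOX1si2. It was lower in all 4 knockdown libraries, and lowest with HMOX1si2. The ratio of LPIN1 to LPIN3 was 1.22 and 0.982 in siControl, 2.25 and 2.17 with HMOX1si1, and 1.26 and 1.29 with HMOX1si2. It was higher in all 4 knockdown libraries and stood apart with HMOX1si1. The ratio of DGAT1 to DGAT2 was 9.82 and 9.61 in siControl, 7.88 and 7.69 with HMOX1si1, and 6.06 and 5.22 with HMOX1si2, and that of ACACB to ACACA was 0.567 and 0.562, 0.696 and 0.673, and 0.919 and 0.667. For both pairs the knockdown libraries lay on 1 side of the controls.

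**Figure D5:**
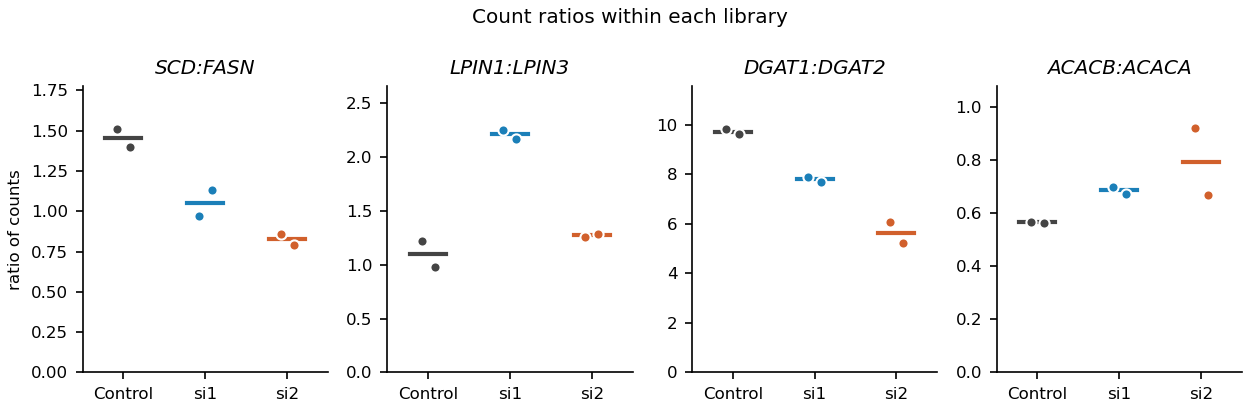
Ratio of the counts of 2 members within each library (points) and group mean (lines). SCD to FASN and DGAT1 to DGAT2 are lower in all 4 knockdown libraries. ACACB to ACACA and LPIN1 to LPIN3 are higher in them, and LPIN1 to LPIN3 stands apart with HMOX1si1.

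Other genes of the pathway were listed in 6 groups, of which 100 of 117 genes could be tested. On average 7 rose and 9 fell of these 100, beside 5.16% of all genes higher and 4.93% lower, and their median log2 fold change was -0.08. The counts of the single groups stand against the same background. The part of these genes in the members' changes was not tested. Their calls, like those of the members, were mostly lost without a siControl library, in 85 of 88 cases.

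Of 22 regulators tested, 3 rose and 1 fell. MLXIP, a glucose-sensing factor, had 201 and 191 CPM in siControl, 294 and 312 with HMOX1si1, and 324 and 284 with HMOX1si2, and rose by 0.63 (SE 0.09, adjusted p = 0.0199, edgeR's quasi-likelihood test). Its paralogue MLXIPL, known as ChREBP and as an activator of lipogenic genes, had 9.62 and 10.6 CPM, 4.32 and 4.63, and 8.32 and 5.97, and fell by 0.84 (SE 0.16, adjusted p = 0.0321). The catalytic AMP-kinase subunit PRKAA2 rose by 0.92 (adjusted p = 0.0230) and the nuclear receptor RXRA by 0.42 (adjusted p = 0.0454). SREBF1 and SREBF2, which encode the sterol regulatory element-binding proteins, had log2 fold changes of -0.05 (adjusted p = 0.726) and -0.19 (adjusted p = 0.150) and did not pass. Without siControl replicate 1 and replicate 2, the adjusted p was 0.0847 and 0.139 for MLXIP, 0.106 and 0.192 for MLXIPL, 0.0692 and 0.135 for PRKAA2, and 0.0806 and 0.205 for RXRA. Without HMOX1si1 replicates 1 and 2 it was 0.0527 and 0.0673 for MLXIP, 0.0788 and 0.0833 for MLXIPL, 0.0583 and 0.0634 for PRKAA2, and 0.108 and 0.124 for RXRA, and RXRA also lost its call without HMOX1si2 replicates 1 and 2 (0.0896 and 0.0586).

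Among the genes of fatty acid uptake and binding, FABP3 and DBI fell and FABP4 rose. FABP3, a cytosolic fatty acid carrier, had 85.8 and 98.1 CPM in siControl, 42.2 and 44.6 with HMOX1si1, and 51.7 and 48.1 with HMOX1si2. It fell by 0.98 (SE 0.09, adjusted p = 0.00757, edgeR's quasi-likelihood test) and lost the call without siControl replicate 1 (0.0542) and replicate 2 (0.0937) but not without any 1 knockdown library.

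The 12 other synthesis enzymes had a median log2 fold change of -0.16 on average. The lowest p of the average were those of SCD5, a second stearoyl-CoA desaturase (adjusted p = 0.0838, edgeR), HACD1 (0.0691) and OXSM (0.154). SCD5 had 2.93 and 2.88 CPM in siControl, 1.12 and 1.53 with HMOX1si1, and 2.72 and 1.97 with HMOX1si2, and fell by 1.13 with HMOX1si1 (SE 0.26, adjusted p = 0.0467, edgeR). That call was lost without siControl replicates 1 and 2 (0.127 and 0.177), without HMOX1si1 replicates 1 and 2 (0.162 and 0.120) and with limma-voom (0.0517). Among 17 other triglyceride and droplet genes 1 rose (G0S2) and 3 fell (CIDEB, CIDEC and MOGAT3), and among 27 other oxidation genes 2 fell (ACAD9 and HSD17B4). CIDEC, which drives droplet fusion, had 26.7 and 29 CPM in siControl, 26.3 and 21.6 with HMOX1si1, and 11.8 and 14.2 with HMOX1si2, and fell by 1.10 with HMOX1si2 (SE 0.16, adjusted p = 0.0243, edgeR's quasi-likelihood test). G0S2, the inhibitor of the lipase PNPLA2, had 20.0 and 22.7 CPM, 43.4 and 42.2, and 23.7 and 21.8, and rose by 1.0 with HMOX1si1 (SE 0.11, adjusted p = 0.00961, edgeR). Each of these droplet genes stood apart with 1 of the siRNAs. The CIDEC call was lost without siControl replicates 1 and 2 (0.0961 and 0.139) and HMOX1si2 replicate 1 (0.0954), and that of G0S2 without siControl replicates 1 and 2 (0.0549 and 0.0683) and HMOX1si1 replicates 1 and 2 (0.0559 and 0.0600).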

How the data were processed

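The 6 libraries were made from AsPC-1 total RNA with an mRNA library kit, per the labels. The deposited table holds 1 whole number per gene and library, judged from the values to be estimated counts as deposited, since neither a label nor the file states the unit; even numbers make up 71.9% of the values 1 to 10 and 49.9% of values over 100, so how the authors counted is not known. The sources used here give neither aligner nor counter. The builds named, per the submitters' processing notes, are GRCm38 and mm10, although all identifiers are human.

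Genes were kept with filterByExpr, scaled by TMM and modelled together in all 6 libraries with a mean for each group (R 4.3.3, edgeR 4.0.16, glmQLFit and glmQLFTest), with Benjamini-Hochberg adjustment over 13769 genes and a threshold of 0.05. The 4 contrasts were the average of both siRNAs against siControl, each siRNA against siControl, and HMOX1si2 minus HMOX1si1. Standard errors are the absolute log2 fold change over the square root of F. Exon lengths, positions and overlaps come from GENCODE 29 (GRCh38). Rounding before the fit changed no value, because all values were whole. Alternatives used DESeq2 1.42.0, limma 3.58.1 (voom), other scalings, no filter, 2 groups, the replicate block and each library left out. The code was tested on simulated data. The members, lists and tests were chosen with earlier results of these data known. The rule for named genes names every member, and among related genes those that passed the threshold and those with the smallest p. A few of these related genes are not reported here.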

Additional observations from a re-analysis of the deposited data

Results flagged for a closer look

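The responses to the 2 siRNAs differed in 1 of 37 members (2.7%) and 5 of 100 related genes tested, beside 3.62% of all genes. The test was edgeR's for HMOX1si2 minus HMOX1si1, with Benjamini-Hochberg adjustment over all genes. LPIN3 was 0.59 higher with HMOX1si2 on the log2 scale (adjusted p = 0.0422). SLC27A4, a fatty acid transport protein, had a difference of -0.94 (adjusted p = 0.0195), with 33.2 CPM with HMOX1si1, 17.3 with HMOX1si2 and 23.5 in siControl. The droplet fusion gene CIDEC had a difference of -0.88 (adjusted p = 0.0403) and the lipase inhibitor G0S2 one of -0.91 (adjusted p = 0.0176). DECR1, a mitochondrial reductase for unsaturated fatty acids, had a difference of -1.05 (adjusted p = 0.0396), at 14.5 CPM with HMOX1si1 and 7.03 with HMOX1si2. ANGPTL4, a secreted inhibitor of lipoprotein lipase, had a difference of -0.67 (adjusted p = 0.0422), at 16.1 CPM with HMOX1si1 and 10.1 with HMOX1si2. With 1 library left out, edgeR's adjusted p rose above 0.05 for all 6 genes in at least 1 case. It was 0.218 for LPIN3, 0.106 for SLC27A4, 0.172 for CIDEC, 0.102 for G0S2, 0.141 for DECR1 and 0.193 for ANGPTL4 without HMOX1si1 replicate 1, 0.166, 0.105, 0.101, 0.0955, 0.166 and 0.183 in the same order without HMOX1si1 replicate 2, and 0.129, 0.0739, 0.124, 0.0564, 0.0982 and 0.139 without HMOX1si2 replicate 1. Without HMOX1si2 replicate 2 it was 0.0982 for LPIN3, 0.0695 for CIDEC, 0.0626 for G0S2 and 0.101 for ANGPTL4, and without siControl replicate 1 or 2 G0S2 alone kept its call, and the others had 0.0537 to 0.0945.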

How the results depend on the processing

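Counts of members called in edgeR, 6 on average, 6 with HMOX1si1, 3 with HMOX1si2 and 1 for the difference between the siRNAs, depended on which libraries were kept. With 1 library left out they ranged from 0 to 8, from 0 to 5, from 0 to 2 and from 0 to 1. With the replicate number as a block they were 1, 1, 0 and 0, where 11, 13, 10 and 6 members had an unadjusted p under 0.05, and 14 of 16 calls of members were lost. The pairing rests only on a shared number: same-numbered libraries had deviations that correlated at 0.008 (siControl and HMOX1si1), 0.027 (siControl and HMOX1si2) and -0.153 (HMOX1si1 and HMOX1si2). With only the 2 groups compared, 1 member passed with HMOX1si2 and 0 differed between the siRNAs, where 7 had an unadjusted p under 0.05. For these unadjusted counts too, the share of all genes was not counted. DESeq2 called 6 with HMOX1si2 and 3 for the difference, and on average 2612 genes of the whole table where edgeR called 1389. For the difference, library totals, no filter and limma-voom each gave 2. Of 202 alternative values of the 16 called member values, 107 kept the call, 95 lost it and 0 turned in direction. All 16 were kept with DESeq2 and with limma-voom, and all were lost without either siControl library. For the related genes, 292 of 556 kept the call, 264 lost it and 0 turned. The causes were not tested. No fit with only 2 groups was possible for the average. Counting precision was lowest for ELOVL7, PNPLA3, GPAM and FADS1, all under 10 CPM in siControl.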
